A study of Homo sapiens with 8 samples.

Results

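The genes described here are 40 members of the integrated stress response and of the amino acid supply that the response controls. They were listed by symbol and found by Ensembl gene ID among the 64253 genes of the deposited count tables, and 39 of the 40 passed the filter on low counts that left 20305 genes for testing. STC2, a secreted glycoprotein, was the member that did not pass, with 1 to 7 reads in every library. RNA-seq was measured in 8 libraries of a human colon cancer line, in 4 groups of 2. HCT-8 cells, which are sensitive to 5-fluorouracil (5-FU), and their 5-FU-resistant counterpart HCT-8/FU were grown in unconditioned medium. The other groups, CM of HCT-8 and CM of HCT-8/FU, were HCT-8 cells grown in conditioned medium (CM) that had been collected after 48 h on HCT-8 or on HCT-8/FU cells. No label gives a 5-FU treatment before RNA extraction or the length of the exposure to CM, the labels and the methods name different base media, and amino acids in the media were not measured here. HCT-8/FU is 1 line, so what separates it from HCT-8 is described for that line only. Whether the 2 libraries of a group came from separate cultures is not given, and the p-values then measure only the spread between these libraries, which may be technical.

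The integrated stress response starts at eIF2, the initiation factor that brings the first tRNA to the ribosome. Kinases such as PERK and GCN2 phosphorylate its alpha subunit when proteins misfold in the endoplasmic reticulum or when amino acids run short, which lowers translation in general while the mRNA of the transcription factor ATF4 is translated more. ATF4 and its partners then switch on genes for amino acid synthesis, amino acid import and tRNA charging, and also CHOP, the product of DDIT3, and feedback genes that end the response. Cancer cells are known to rely on the pathway when nutrients are short.

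ATF4 and its partners of the C/EBP family are known to bind a composite element of the form TGATGNAA. Members' promoters were searched for these letters, and some that hold them are shown to let the element be read in place. Many members were listed as known targets of ATF4, so the element is not independent of how they were chosen. Of the 40 members, 34 had an entry in RefSeq's promoter table (GRCh38.p14), which covers 250 bases before to 50 bases after a start site, and the members without one were NUPR1, EIF4EBP1, PSPH, ALDH1L2, SLC7A11 and YARS1. TGATGNAA on either strand was found in 10 of the 34 promoters (29.4%) and in 1003 of all 27305 promoters (3.67%). The 10 were ATF3, ASNS, SLC3A2, CARS1, AARS1, MARS1, SLC7A1, CHAC1, NARS1 and TARS1. The form TGATGCAA, which is contained in TGATGNAA, was found in 6 of the 34 (17.6%) and in 0.923% of all promoters. TGACGTCA, the element of the CREB and ATF families, was found in 1 member, PPP1R15A, and in 1.98% of all promoters. A match is a description of letters in this window and no measure of binding, and the windows end 50 bases after the start site used. Only 1 start site per gene was searched, the first listed, so other starts of the same gene were not examined. Of the 10 members that hold TGATGNAA, the promoters of the 5 with the lowest p in any comparison are printed 5′ to 3′ on the strand of the gene, with the match in capitals. In ATF3 (chr1:212565157-212565456, plus strand) the match began 191 bases before the start, in ASNS (chr7:97872359-97872658, minus strand) 68 before, in AARS1 (chr16:70289457-70289756, minus strand) 187 before and in CARS1 (chr11:3057374-3057673, minus strand) 2 before, and in SLC3A2 (chr11:62881449-62881748, plus strand) it began 37 bases after the start.
ATF3: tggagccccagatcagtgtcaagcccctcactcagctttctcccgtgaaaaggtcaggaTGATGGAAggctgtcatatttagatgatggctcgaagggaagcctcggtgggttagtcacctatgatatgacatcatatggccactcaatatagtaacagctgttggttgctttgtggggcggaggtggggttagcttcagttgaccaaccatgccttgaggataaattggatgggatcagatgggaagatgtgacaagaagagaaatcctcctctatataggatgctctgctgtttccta
ASNS: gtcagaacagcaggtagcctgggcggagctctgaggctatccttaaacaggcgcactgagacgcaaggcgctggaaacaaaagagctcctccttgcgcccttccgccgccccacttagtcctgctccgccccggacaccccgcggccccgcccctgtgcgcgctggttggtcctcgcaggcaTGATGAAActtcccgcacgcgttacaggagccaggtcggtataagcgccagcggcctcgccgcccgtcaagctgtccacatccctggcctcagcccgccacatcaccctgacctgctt
SLC3A2: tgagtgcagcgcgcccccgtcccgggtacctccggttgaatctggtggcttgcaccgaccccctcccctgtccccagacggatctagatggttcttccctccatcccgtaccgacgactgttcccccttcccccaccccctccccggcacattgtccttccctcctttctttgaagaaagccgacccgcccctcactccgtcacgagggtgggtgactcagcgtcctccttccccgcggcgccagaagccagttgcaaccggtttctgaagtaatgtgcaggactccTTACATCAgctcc
CARS1: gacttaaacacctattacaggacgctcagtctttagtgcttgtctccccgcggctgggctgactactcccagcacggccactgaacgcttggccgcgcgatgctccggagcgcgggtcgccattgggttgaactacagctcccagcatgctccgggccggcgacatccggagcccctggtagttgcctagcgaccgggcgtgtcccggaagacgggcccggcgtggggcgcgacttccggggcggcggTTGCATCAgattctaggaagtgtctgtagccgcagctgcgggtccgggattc
AARS1: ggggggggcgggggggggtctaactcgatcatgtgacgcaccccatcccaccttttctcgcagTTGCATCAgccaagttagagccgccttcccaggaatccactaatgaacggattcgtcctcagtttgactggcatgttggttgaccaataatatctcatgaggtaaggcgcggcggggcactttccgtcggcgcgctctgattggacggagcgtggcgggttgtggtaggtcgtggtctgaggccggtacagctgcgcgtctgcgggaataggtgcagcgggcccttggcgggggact
The match read TGATGGAA in ATF3 and TGATGAAA in ASNS, while AARS1 and CARS1 shared TTGCATCA and SLC3A2 held TTACATCA, which are matches on the other strand.

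Reads on genes numbered 5804124 to 34881349 per library. In 3 libraries, HCT-8 replicate 1, HCT-8/FU replicate 2 and CM of HCT-8 replicate 1, 19.96% to 29.6% of the records were not aligned, against 3.58% to 4.43% in the other 5, and these 3 were also the shallowest. The libraries differed in how a gene's level moved with its GC content. The Spearman correlation across genes lay between -0.520 in HCT-8/FU replicate 1 and 0.567 in CM of HCT-8 replicate 2. The groups did not overlap in this value. HCT-8/FU was lowest, at most -0.480, followed by CM of HCT-8/FU at -0.071 to -0.066. HCT-8 lay at 0.057 to 0.229, and CM of HCT-8 was highest, at least 0.400. Each result below was therefore also fitted with a correction of every library for GC content and gene length. As the trend followed the groups, the correction may also remove group differences that go with GC content. Calls that it ended or made, such as those of SLC7A11, SLC38A2, GARS1 and EIF2AK3, are not settled by it. The members' GC content ran from 35.4% to 66.2% with a median of 50.2%, against a median of 49.0% over all genes tested. All 10 markers of colon epithelium were detected, among them the keratin gene KRT8 at 4720.0 to 5869 CPM, which are reads scaled by the size of each library. The summed level was 12.5 to 22.3 CPM for 6 fibroblast markers, 0.739 to 1.96 CPM for 5 leukocyte markers and 1.27 to 2.45 CPM for 3 endothelial markers. Of these, PTPRC, CD3E and MS4A1 of leukocytes and COL1A2 of fibroblasts were at 0 in all libraries, while COL1A1 was at 8.19 to 13.8 CPM and PDGFRB at 4.35 to 9.04 CPM. The fibroblast sum was highest in CM of HCT-8, at 20.5 and 22.3 CPM, and its part in the results was not tested. In bulk RNA, fewer cells that express a gene and less of its RNA per cell cannot be told apart.

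Per kilobase of exon, the members' mean levels over the 8 libraries covered the range from 348 CPM per kilobase for ATF4 to 0.0288 for STC2. After ATF4 came the leucine transporter SLC7A5 at 159, the serine synthesis enzyme PSAT1 at 144, the pseudokinase TRIB3 at 142 and DDIT4 at 111 CPM per kilobase. ATF3, the member that changed most, stood low on this scale, at 6.49 CPM per kilobase. VLDLR, ALDH1L2 and STC2 were below 0.1 CPM per kilobase. Within a group the replicate libraries lay close together: over the 37 members with a mean of at least 5 CPM, the higher library exceeded the lower by a median of 1.05 times in HCT-8, 1.06 times in HCT-8/FU, 1.06 times in CM of HCT-8 and 1.03 times in CM of HCT-8/FU. The widest gap was 1.69 times, for CEBPB in CM of HCT-8.

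HCT-8/FU cells were compared with HCT-8 cells to ask how the resistant line differs from the sensitive one in unconditioned medium. Most of the stress response genes were lower in the resistant cells, and the drop was deepest for ATF3 at 8.92-fold, DDIT3 at 4.88-fold and TRIB3 at 4.27-fold. A gene was called differentially expressed (DE) where its false discovery rate was 0.05 or less and its log2 fold change was 0.58 or more in size, which is about 1.5-fold. By this rule 29 of the 39 tested members were DE, against 21.3% of all tested genes. Of the 29, 27 fell and 2 rose, where 8.12% of all genes fell and 13.2% rose. The median log2 fold change was -0.87 over the members and 0.01 over all genes tested. Of the 27, 16 fell by more than 2-fold, a cut for which no share of all genes is given here. The false discovery rate alone was passed by 36 members, against 36.7% of genes. In 33 of the 39 members both HCT-8/FU libraries lay below both HCT-8 libraries, against 32.3% of all genes, and in 4 members both lay above, against 32.7%. With the correction for GC content and length, 27 members fell and 0 rose (edgeR's quasi-likelihood test, Benjamini-Hochberg adjusted), against 8.72% and 7.12% of genes, and 25 of the 27 uncorrected calls were kept.

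**Figure D1:**
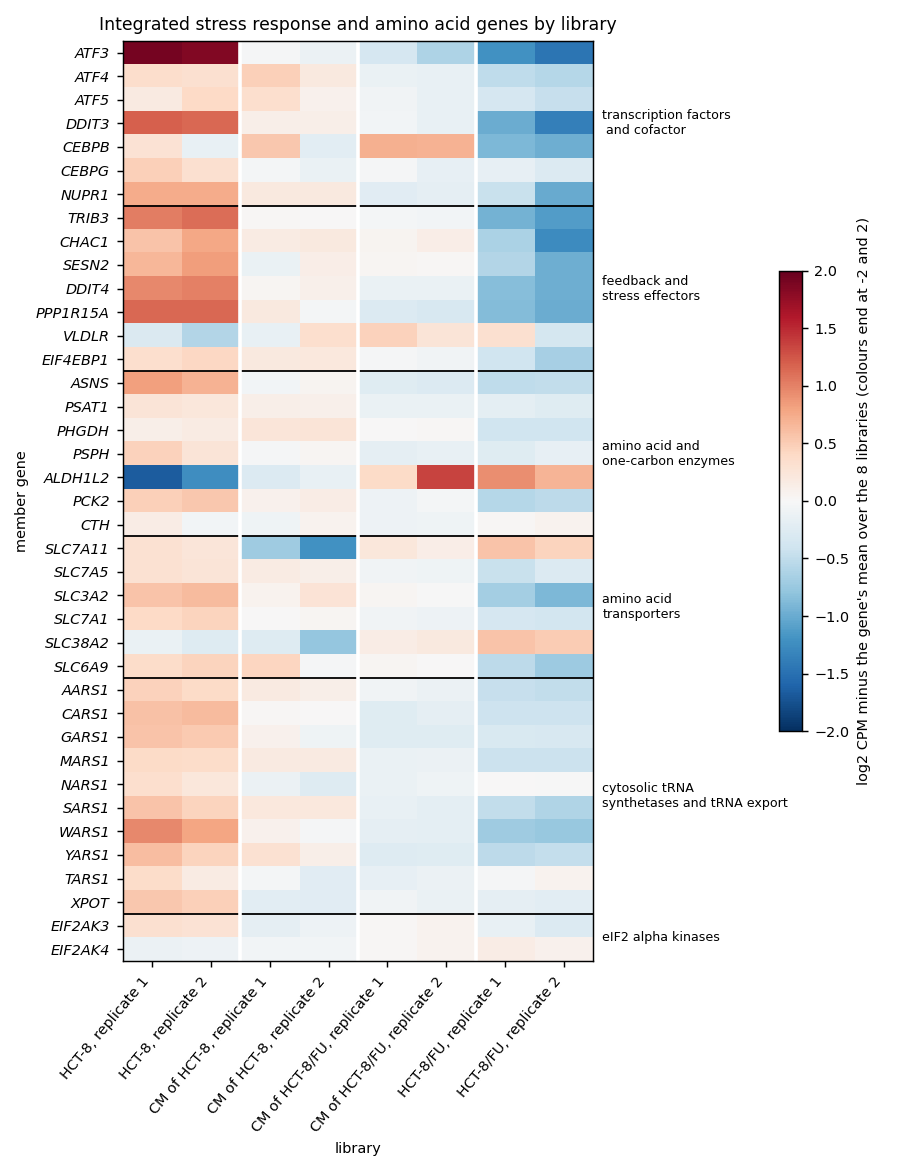
Heat map of the 39 tested members (rows, grouped by role) in the 8 libraries (columns). Colour is log2 CPM minus the gene's mean over the 8 libraries, red above and blue below it, and the HCT-8 columns are mostly red while the HCT-8/FU columns are mostly blue. Among the exceptions, ALDH1L2, SLC7A11, SLC38A2 and EIF2AK4 are higher in both HCT-8/FU libraries than in either HCT-8 library, and VLDLR is lowest on average in HCT-8.

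All 7 transcription factors and cofactors fell in HCT-8/FU. ATF4, the central factor of the response (chr22:39519695-39522683 in GRCh38), was at 1129.8 and 1104 CPM in the HCT-8 libraries and at 623 and 594 CPM in the HCT-8/FU libraries, a log2 fold change of -0.88 ± 0.08 (SE). Its mRNA level does not report how much of it is translated, which is the step that the response regulates. ATF3, a stress-induced factor of the same family (chr1:212565334-212620777), was at 67.8 and 65.2 CPM in HCT-8 and at 7.78 and 6.52 CPM in HCT-8/FU, and its log2 fold change of -3.16 ± 0.14 was the largest drop among the members (edgeR's quasi-likelihood test, Benjamini-Hochberg adjusted p = 1.52e-09). Both resistant libraries were far below both sensitive ones, with no overlap. DDIT3, which encodes CHOP, a factor tied to cell death under lasting stress (chr12:57516588-57521737), was at 212 and 205 CPM in HCT-8 and at 46.8 and 36.1 CPM in HCT-8/FU, a log2 fold change of -2.29 ± 0.10. Of the exonic bases of DDIT3, 27.2% overlap MARS1 on the other strand, no source used here gives the strand setting of the counting, and MARS1 had a smaller log2 fold change than DDIT3, at -0.80. NUPR1, a small stress-induced chromatin cofactor, was at 93.3 and 93.6 CPM in HCT-8 and at 41.2 and 27.9 CPM in HCT-8/FU. CEBPB, a C/EBP factor that dimerizes with ATF4, was at 123 and 90.0 CPM in HCT-8 and at 53.5 and 51.1 CPM in HCT-8/FU, where the sensitive libraries were apart by more than the resistant ones. ATF5 and CEBPG fell by less, with log2 fold changes of -0.69 and -0.61. ATF5 lost its call with the correction, at -0.47, and without HCT-8 replicate 2, at -0.56. Of the exonic bases of ATF5, 19.5% overlap NUP62 on the other strand, and of those of CEBPB, 12.6% overlap CEBPB-AS1. CEBPG lost its call without HCT-8 replicate 1, at -0.53, and without HCT-8/FU replicate 2, at -0.56.

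Of the feedback and stress effectors, 6 of the 7 tested fell. TRIB3, a pseudokinase that restrains ATF4 and CHOP, had 828 and 887 CPM in HCT-8 and 212 and 188 CPM in HCT-8/FU, and had the lowest p of all members (log2 fold change -2.10 ± 0.08, edgeR's quasi-likelihood test, Benjamini-Hochberg adjusted p = 5.01e-10). PPP1R15A encodes GADD34, the phosphatase subunit that removes the phosphate from eIF2 alpha, and was at 617 and 614 CPM in HCT-8 and at 153 and 139.7 CPM in HCT-8/FU. DDIT4, an inhibitor of the growth kinase mTORC1, was at 411 and 421 CPM in HCT-8 and at 116 and 106 CPM in HCT-8/FU. These 3 genes were lower by 4.27, 4.19 and 3.72 times, and no resistant library came near a sensitive one. SESN2, a sestrin that also restrains mTORC1 and senses leucine, was at 115 and 129 CPM in HCT-8 and at 48.3 and 36.9 CPM in HCT-8/FU. CHAC1, which degrades glutathione, was at 54.6 and 62.3 CPM in HCT-8 and at 23.7 and 15.4 CPM in HCT-8/FU, with the widest gap between resistant replicates among members of at least 5 CPM, 1.54 times. EIF4EBP1, a repressor of cap-dependent translation, was at 95.2 and 101 CPM in HCT-8 and at 57.7 and 47.6 CPM in HCT-8/FU. These 3 genes were lower in both resistant libraries than in either sensitive library. VLDLR, a lipoprotein receptor, stayed below 2 CPM in every library and was not DE, with a log2 fold change of 0.61 and a 95% interval of -0.37 to 1.59.

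The amino acid enzymes moved less uniformly, with 2 of 7 lower and 1 higher. ASNS, asparagine synthetase (chr7:97851677-97872542), was at 548 and 503 CPM in HCT-8 and at 218 and 220.0 CPM in HCT-8/FU, a log2 fold change of -1.26 ± 0.07. PCK2, the mitochondrial phosphoenolpyruvate carboxykinase, was at 229 and 240.2 CPM in HCT-8 and at 111 and 115 CPM in HCT-8/FU. In both genes the libraries of a group nearly coincided and the groups were apart. The 3 enzymes of serine synthesis, PHGDH, PSAT1 and PSPH, passed the false discovery rate but not the fold threshold, with log2 fold changes of -0.54, -0.46 and -0.56, and PSAT1 was DE with the correction at -0.78. CTH, which makes cysteine from cystathionine, had overlapping libraries and a log2 fold change of 0.00 with a 95% interval of -0.23 to 0.24. ALDH1L2, a mitochondrial folate enzyme, was called higher at 2.15 ± 0.76, but on 1 and 6 reads in HCT-8 and 24 and 4 reads in HCT-8/FU. The ALDH1L2 call was lost with the correction (1.72) and without any one of the HCT-8, HCT-8/FU or CM of HCT-8/FU libraries, where the value ran from 1.97 to 2.47.

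Of the amino acid transporters, 4 of 6 fell and 1 rose. SLC3A2, the heavy chain that carries SLC7A5 and SLC7A11 to the membrane, was at 869 and 915 CPM in HCT-8 and at 366 and 315 CPM in HCT-8/FU, a log2 fold change of -1.38 ± 0.08. SLC7A1, an importer of arginine and lysine, was at 735 and 755 CPM in HCT-8 and at 439 and 433 CPM in HCT-8/FU. SLC6A9, a glycine transporter, was at 88.2 and 93.2 CPM in HCT-8 and at 47.7 and 41.5 CPM in HCT-8/FU. For all 3 genes the resistant libraries were the lower ones without overlap. SLC7A5 had a log2 fold change of -0.64, which was -0.39 and no longer DE with the correction, and -0.56 and no longer DE without HCT-8/FU replicate 1. The remaining transporters, SLC38A2 and SLC7A11, were not lower. SLC38A2, a sodium-coupled importer of small neutral amino acids, was at 509 and 468 CPM in HCT-8 and at 833 and 799 CPM in HCT-8/FU, a rise of 0.74 ± 0.12 that was 0.13 and not DE with the correction. SLC7A11, the cystine importer of system xc, was at 247 and 238 CPM in HCT-8 and at 297 and 272 CPM in HCT-8/FU, where the resistant libraries were both higher but the difference of 0.23 did not pass the test, and with the correction it changed sign to -0.53, which passed the false discovery rate but not the fold threshold. SLC38A2 and SLC7A11 have low GC contents, 37.6% and 35.4%, and SLC7A11 shares 8.97% of its exonic bases with the antisense gene SLC7A11-AS1.

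Of the cytosolic tRNA synthetases and the tRNA export factor, 8 of 10 fell. WARS1, which charges tryptophan tRNA, was at 712 and 631 CPM in HCT-8 and at 223 and 215 CPM in HCT-8/FU, the largest drop of this group at -1.61 ± 0.08. SARS1 (serine) was at 338 and 308 CPM in HCT-8 and at 161 and 151 CPM in HCT-8/FU. YARS1 (tyrosine) was at 489 and 434 CPM in HCT-8 and at 222 and 227 CPM in HCT-8/FU. The 3 genes were more than 2-fold lower in the resistant cells, and so was CARS1. CARS1 (cysteine) was at 246 and 255 CPM in HCT-8 and at 123 and 124 CPM in HCT-8/FU. AARS1 (alanine) was at 514 and 485 CPM in HCT-8 and at 269.9 and 265 CPM in HCT-8/FU. GARS1 (glycine) was at 474 and 458 CPM in HCT-8 and at 258 and 255 CPM in HCT-8/FU, and MARS1 (methionine) was at 374 and 373 CPM in HCT-8 and at 213 and 215 CPM in HCT-8/FU. No library of one group reached the other group in any of these genes. XPOT, which exports tRNA from the nucleus, fell with a log2 fold change of -0.71. NARS1 (asparagine) and TARS1 (threonine) were below the fold threshold at -0.28 and -0.25. Of the eIF2 alpha kinases, EIF2AK3, which encodes PERK, was at -0.50 and EIF2AK4, which encodes GCN2, at 0.22, and neither was DE. With the correction EIF2AK3 was lower at -1.04 and called DE.

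**Figure D2:**
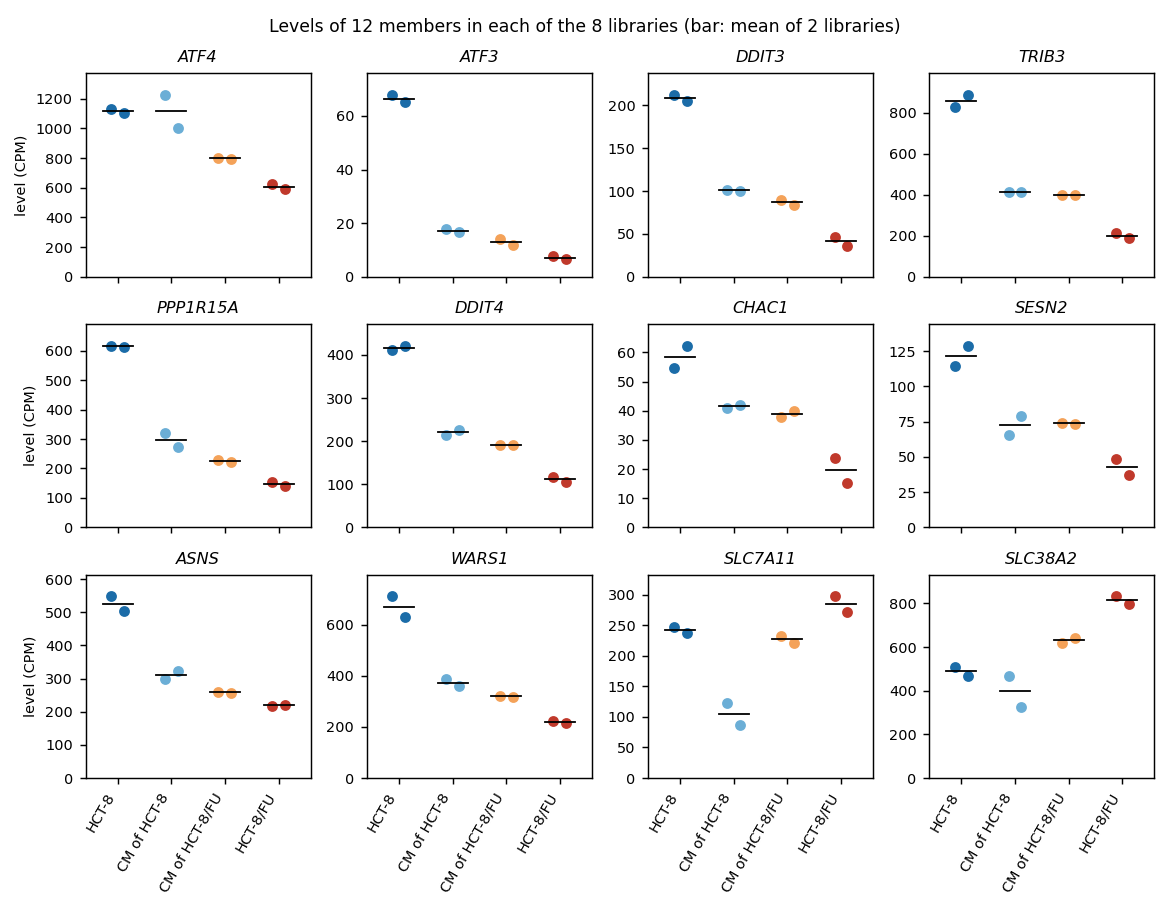
Levels of selected members in CPM (vertical axes start at 0) for each library, with the 2 libraries of a group as points and their mean as a bar. ATF3, DDIT3, TRIB3, PPP1R15A and DDIT4 step down from HCT-8 to both CM groups and again to HCT-8/FU, ATF4 is at 1006 to 1226 CPM in CM of HCT-8 and 1104 to 1130 CPM in HCT-8, and SLC7A11 and SLC38A2 are highest in HCT-8/FU.

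Other genes of the pathway, listed apart from the members, were read in the same comparison. Like the members, these lists were chosen with earlier results of these data known, so they are not independent of the values compared. Of all tested genes 8.12% fell and 13.2% rose, and with the correction 8.72% and 7.12% did. A single call in a list of 11, 13 or 17 genes is about what those shares give or less, and says little about the list. Of 17 further genes linked to ATF4, 16 could be tested and 13 fell in the resistant cells, their median being -0.89 on the log2 scale, and CBS, which has a near-identical copy, was too low to test. The log2 fold change of GDF15, a secreted stress hormone, was -1.86, that of PYCR1 of proline synthesis -1.26, that of the neutral amino acid transporter SLC1A4 -1.14 and that of SHMT2 of mitochondrial one-carbon metabolism -1.04. With the correction 11 of the 16 were lower. Of 11 other cytosolic synthetases, only IARS1 (isoleucine) fell, at -0.66, and their median was -0.26, while the 9 listed as members had a median of -0.90. Of 17 mitochondrial synthetases 0 were DE, with a median of 0.05 and a range of -0.51 to 0.43. With the correction 3 of the 11 and 1 of the 17 were lower. Among 13 genes of eIF2, its exchange factor eIF2B and the eIF2 alpha kinases, 0 fell and 1 rose, EIF2AK2, which encodes the kinase PKR, at 1.01, and it was 0.44 and not DE with the correction. With the correction 1 of the 13 was lower, EIF2S3, a subunit of eIF2, at -0.75 against -0.34 without it.

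**Figure D3:**
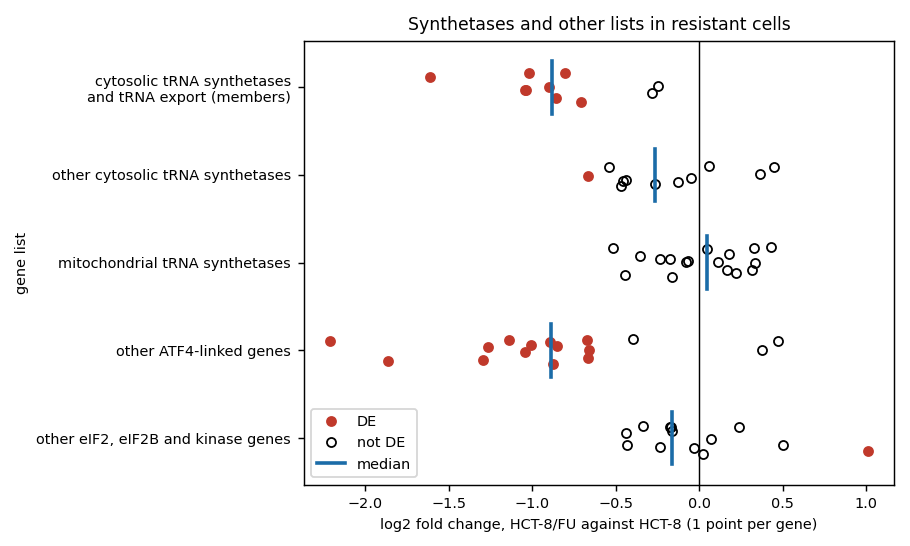
Log2 fold change in HCT-8/FU against HCT-8 (horizontal axis) for 5 gene lists, with 1 point per gene, filled where the gene was DE, and the list's median as a blue line. The member synthetases with XPOT and the other ATF4-linked genes lie mostly below -0.58, and the mitochondrial synthetases lie on both sides of 0.

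The CM of HCT-8/FU group was compared with the CM of HCT-8 group to ask what the resistant cells' medium changes beyond that of sensitive cells. Few members differed by the rule for DE genes. Only SLC7A11 and SLC38A2 passed both thresholds, both higher, so 2 of 39 members rose and 0 fell, where 7.97% of all tested genes rose and 1.28% fell, or 9.25% in all. SLC7A11 was at 123 and 86.3 CPM in CM of HCT-8 and at 233 and 221 CPM in CM of HCT-8/FU, a 2.20-fold rise (edgeR's quasi-likelihood test, Benjamini-Hochberg adjusted p = 8.22e-06). In unconditioned HCT-8 this gene was at 247 and 238 CPM. Its level in CM of HCT-8/FU was thus not above unconditioned HCT-8, and CM of HCT-8 was the group that lay low. SLC38A2 was at 468 and 327 CPM in CM of HCT-8 and at 619 and 644 CPM in CM of HCT-8/FU, a rise of 0.67 ± 0.12 that was 0.43 and not DE without CM of HCT-8 replicate 2. In unconditioned HCT-8 it was at 509 and 468 CPM, below both libraries of CM of HCT-8/FU. For both genes the libraries of CM of HCT-8 were apart by more than those of CM of HCT-8/FU. With the correction the differences were 0.38 and 0.11 and neither was DE, so 0 members rose, against 2.67% of genes, and 1 fell, against 2.31%. This was GARS1, lower at -0.88 against -0.24 without the correction. GARS1 has 17366 exonic bases, more than any member other than EIF2AK3, and a GC content of 39.0%.

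Without the fold threshold 16 members passed, against 19.7% of genes. Below that threshold, 14 members passed the false discovery rate with lower values in CM of HCT-8/FU, against 8.49% of all genes and with log2 fold changes of -0.48 to -0.22. ATF4 was among them, at 1226 and 1006 CPM in CM of HCT-8 and at 801 and 795 CPM in CM of HCT-8/FU, a difference of -0.48 ± 0.08 (edgeR's quasi-likelihood test, Benjamini-Hochberg adjusted p = 0.000588) that was -0.31 with the correction (adjusted p = 0.0742 by the same edgeR test). YARS1, SARS1, PPP1R15A and MARS1 were others, at -0.46, -0.38, -0.38 and -0.30. With the correction 8 members were lower by the false discovery rate alone, against 7.40% of genes, and 6 of the 14 were among them, namely ASNS, PSAT1, GARS1, MARS1, SARS1 and YARS1. The others, PPP1R15A at -0.21 and ATF3 at -0.26 included, no longer passed. XPOT and EIF2AK3 made up the 8 and changed sign, from 0.11 to -0.29 and from 0.18 to -0.39. For the genes that separated the resistant cells most, the values in CM stayed small: the 95% interval of the log2 fold change was -0.21 to 0.10 for TRIB3, -0.42 to -0.01 for DDIT3 and -0.67 to -0.12 for ATF3. In 25 of the 39 members both libraries in CM of HCT-8/FU were below both in CM of HCT-8, against 34.5% of all genes, and in 7 both were above, against 26.9%. The median was -0.19 over the members and -0.06 over all genes tested.

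**Figure D4:**
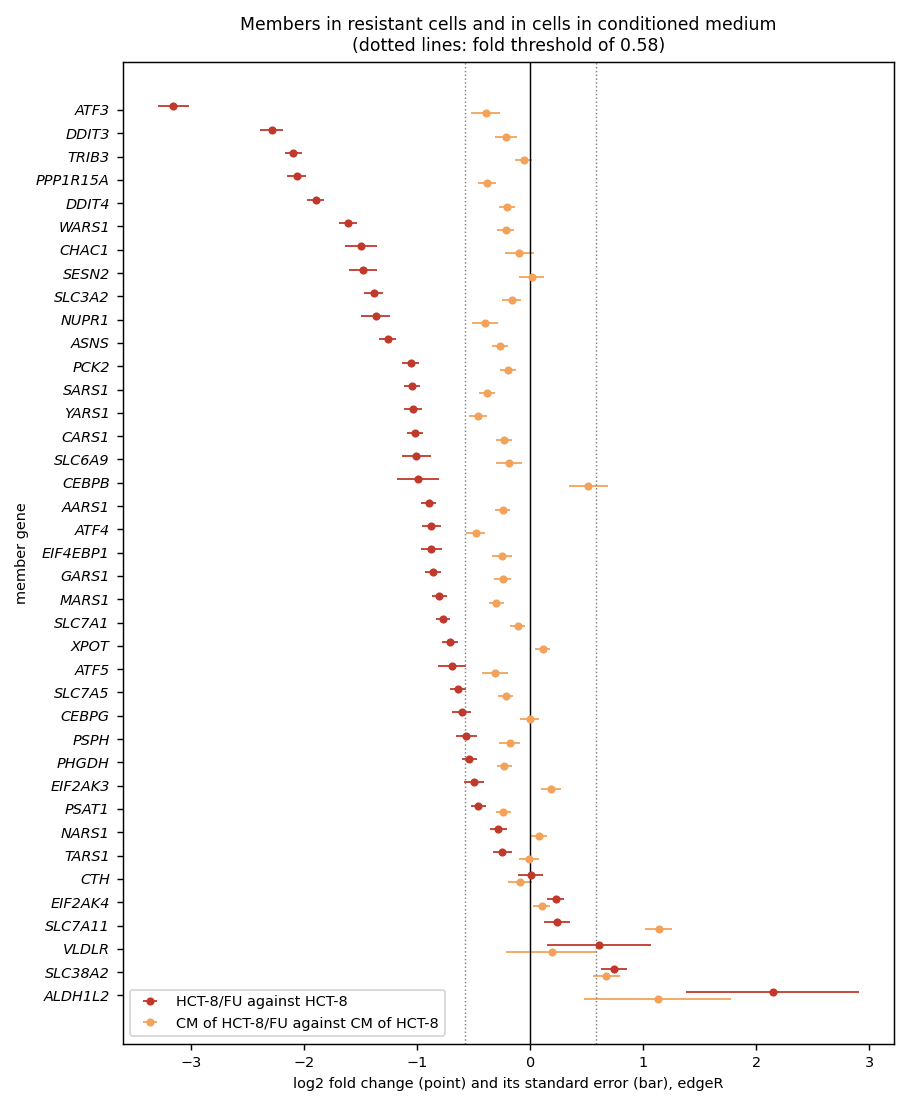
Log2 fold change (points) with its standard error (bars) for each tested member in HCT-8/FU against HCT-8 (red) and in CM of HCT-8/FU versus CM of HCT-8 (orange), in order of the former. Most red points lie left of -0.58, from ATF3 at -3.16 down to CEBPG at -0.61, and most orange points lie between the dotted lines.

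The difference between these comparisons, which share no library, was tested in the same fit. For 30 of the 39 members the change in HCT-8/FU was lower than the change in CM of HCT-8/FU, and for 0 it was higher, where 6.42% and 5.15% of all genes differed in these directions and 11.6% in either. The largest differences were those of ATF3 at -2.76 ± 0.19, DDIT3 at -2.07 ± 0.14 and TRIB3 at -2.04 ± 0.10 on the log2 scale. CEBPB moved in opposite directions, at -0.99 in the resistant cells and 0.51 in CM of HCT-8/FU, where the latter did not pass the test. XPOT, EIF2AK3, NARS1 and SESN2 also had opposite signs, with smaller values than CEBPB in CM of HCT-8/FU. CEBPB was at 146 and 86.5 CPM in CM of HCT-8 and at 164 and 162 CPM in CM of HCT-8/FU, so the replicates in CM of HCT-8 disagreed while those in CM of HCT-8/FU coincided. SLC38A2, the member higher in both comparisons, showed no difference that passed the test, at 0.07 with a 95% interval of -0.29 to 0.42. With the correction 29 members differed in the same direction, against 5.86% of genes.

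**Figure D5:**
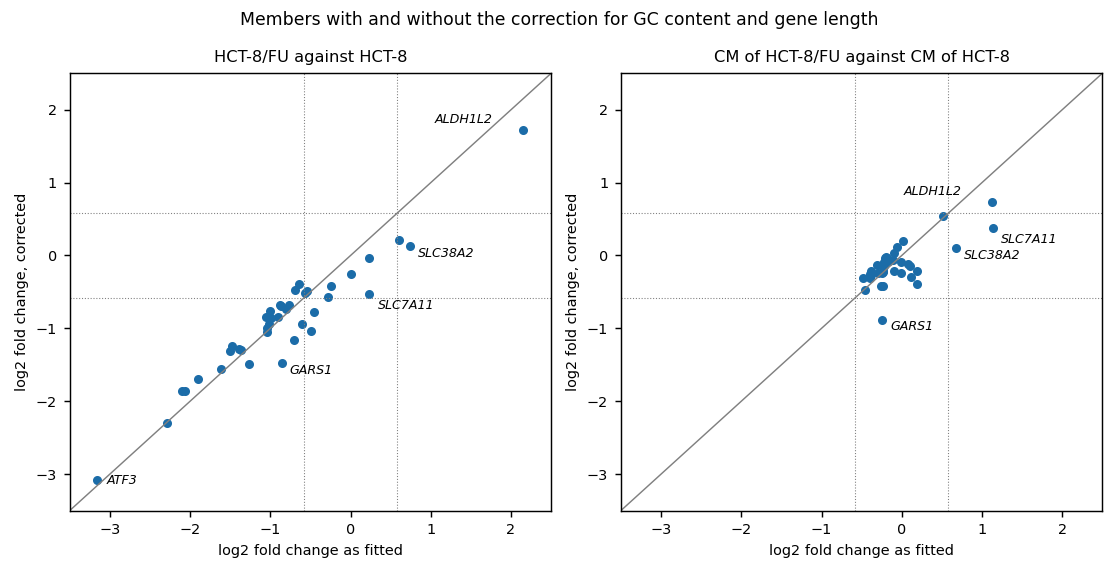
Log2 fold change of each tested member after correcting for GC content and gene length (vertical axis) against the value without it (horizontal axis), for HCT-8/FU against HCT-8 (left) and CM of HCT-8/FU versus CM of HCT-8 (right). The grey line marks equal values and dotted lines mark 0.58 and -0.58, and SLC7A11, SLC38A2 and GARS1 lie below the line in both panels while ATF3 stays near it on the left.

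The same HCT-8 libraries also allow conditioned medium to be set against unconditioned medium, and both of the next comparisons share those libraries with each other and with the comparison of the resistant cells. In CM of HCT-8 against HCT-8, 11 members fell and 0 rose, where 4.29% and 3.86% of all tested genes did, or 8.15% in all. ATF3 was at 17.7 and 16.6 CPM in CM of HCT-8, a 3.90-fold drop from its level in HCT-8 (edgeR's quasi-likelihood test, Benjamini-Hochberg adjusted p = 4.26e-07). PPP1R15A was at 319 and 272 CPM, TRIB3 at 414 and 414 CPM and DDIT3 at 101 and 100.5 CPM in CM of HCT-8, and they were lower than in HCT-8 by 2.09, 2.07 and 2.07 times. DDIT4 at 215 and 226 CPM, WARS1 at 387 and 359.8 CPM and ASNS at 299 and 322 CPM fell by less. SESN2, XPOT and CARS1 fell with log2 fold changes of -0.74, -0.73 and -0.59, and the call was lost for XPOT with the correction, at -0.54, and for CARS1 without CM of HCT-8 replicate 2, at -0.58. SLC7A11 fell with a log2 fold change of -1.23 ± 0.12, and -0.87 with the correction, and was DE in both fits. ATF4 itself did not pass the test and its libraries overlapped, with a log2 fold change of -0.00 and a 95% interval of -0.18 to 0.17. With the correction 12 members fell, against 2.85% of genes, and without the fold threshold 26 members passed, against 19.4%. The median was -0.40 over the members and 0.01 over all genes. In 30 of 39 members both CM libraries lay below both HCT-8 libraries, against 27.1% of genes, and in 4 above, against 27.2%.

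In CM of HCT-8/FU against HCT-8, 17 members fell and 2 rose, where 3.28% and 7.16% of all tested genes did, or 10.4% in all. ATF3 was at 14.2 and 11.7 CPM in CM of HCT-8/FU, a log2 fold change of -2.36 ± 0.12. PPP1R15A was at 229.8 and 222 CPM, DDIT3 at 89.9 and 83.9 CPM, TRIB3 at 399 and 396 CPM and DDIT4 at 191 and 191 CPM, and all of them were more than 2-fold below HCT-8. WARS1 was at 323 and 319 CPM and ASNS at 261 and 257 CPM. NUPR1 at 47.8 and 49.3 CPM and SESN2 at 74.2 and 73.4 CPM were also lower, as were CARS1, GARS1, YARS1, SARS1 and XPOT, with log2 fold changes of -0.82 to -0.62. CHAC1, SLC3A2 and PCK2 were close to the fold threshold, at -0.60, -0.59 and -0.59. Without HCT-8 replicate 2 they were -0.46, -0.53 and -0.53 and no longer DE. Leaving out CM of HCT-8/FU replicate 1 ended the calls of CHAC1 and PCK2, at -0.56 each, and leaving out CM of HCT-8/FU replicate 2 ended that of SLC3A2, at -0.57. Of the 2 that rose, CEBPB at 0.64 ± 0.17 was 0.40 and not DE with the correction, and lost its call without HCT-8 replicate 2, at 0.44, as well as without replicate 1 or 2 of CM of HCT-8/FU, at 0.62 and 0.64. ALDH1L2 was at 2.24 ± 0.72 on 1 and 6 reads against 17 and 33, and lost its call with the correction and without any one of these 4 libraries, where the value ran from 1.69 to 2.65. DESeq2 called neither CEBPB nor ALDH1L2 higher. With the correction 16 members fell and 0 rose, against 4.85% and 4.16% of genes, and without the fold threshold 34 members passed, against 24.7%. The median was -0.51 over the members and 0.02 over all genes. In 34 of 39 members both libraries lay below both HCT-8 libraries, against 31.3% of genes, and in 5 above, against 34.4%.

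Read across the 4 groups, HCT-8 in unconditioned medium had the highest mean level for 32 of the 39 tested members, against 26.4% of all genes, and HCT-8/FU the lowest for 30, against 33.7%. Both held for 28 members, against 15.1% of genes. For 26 members the means stood in the order HCT-8 first, then CM of HCT-8, then CM of HCT-8/FU and last HCT-8/FU, against 11.6% of genes. TRIB3 shows this order, with means of 858 ± 41.2 CPM (SD, n = 2) in HCT-8, 414 ± 0.284 CPM in CM of HCT-8, 398 ± 1.84 CPM in CM of HCT-8/FU and 199.9 ± 17.1 CPM in HCT-8/FU. The CM groups were neighbours that did not differ beyond their test in TRIB3. XPOT departed from the order, at 503 and 481 CPM in HCT-8, 297 and 295 CPM in CM of HCT-8, 327 and 314 CPM in CM of HCT-8/FU and 304 and 298 CPM in HCT-8/FU, so that the 6 libraries of the other groups lay at 295 to 327 CPM and both HCT-8 libraries above them. SLC7A11 had its lowest values in CM of HCT-8 and SLC38A2 its highest in HCT-8/FU.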

How the data were processed

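RNA-seq libraries were made from poly(A)-captured RNA of the 4 groups, 2 libraries each, with groups and replicates as the sample titles give them. The authors used HISAT2 (GRCh38) for alignment and HTSeq 0.11.2 with an Ensembl annotation for counting, and the values they deposited are raw read counts. No source used here gives the strand setting. The 5 lines of each table that name no gene took 59.2% to 70.3% of its records and entered neither the library sizes nor the fits. Deposited tables of the authors' DESeq2 comparisons hold log2 fold changes with standard errors, a test score, p-values and a mean signal per gene, and were not used. The count tables held 0 columns of other samples.

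Counts were fitted in R 4.3.3 with edgeR 4.0.16 (TMM, filterByExpr, quasi-likelihood test) as means of the 4 groups over all 8 libraries, and p-values were adjusted by Benjamini-Hochberg over the 20305 genes tested. Standard errors were the size of the log2 fold change over the root of F, and CPM values use TMM library sizes. DE genes had a false discovery rate of 0.05 or less and a log2 fold change of 0.58 or more in size, and differences between comparisons the former alone. Positions, exon unions and GC contents came from GENCODE 44 on the same build, where 56105 of 64253 gene IDs were found, and promoters from RefSeq. The correction used a spline with 5 degrees of freedom on GC content and on log length for each library, over the 19857 tested genes that had both. Alternatives were DESeq2 1.42.0, its size factors, another TMM reference, no filter on low counts, the compared groups alone, a replicate block, the correction with and without the block, a term for poorly aligned libraries, no fold threshold, and each library left out in turn. The fits were tested on simulated data, but the outcome is not given here and is not used as support for the results. Values by library were given for ATF4, ATF3, DDIT3 and for DE members of at least 5 CPM in the order of their largest change up to about 25, and for XPOT, chosen after its values were seen, and the other members by values or ranges. Promoters were printed for at most 5 members with the motif in the order of the lowest p. The members and all gene lists were chosen with earlier results of these data known.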

Additional observations from a re-analysis of the deposited data

Results flagged for a closer look

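For 30 of the 39 tested members the change of HCT-8/FU against HCT-8 differed from the change of CM of HCT-8/FU versus CM of HCT-8, by a test of the difference itself (edgeR's quasi-likelihood test, Benjamini-Hochberg adjusted across all tested genes). The same test called 11.6% of all genes. All 30 values, given here as differences of log2 fold changes, were below 0, which means that the genes were lower in the resistant cells relative to the change in conditioned medium.

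Of the transcription factors and cofactors, the difference was -2.76 for ATF3, -2.07 for DDIT3, -1.51 for CEBPB, -0.97 for NUPR1, -0.60 for CEBPG and -0.39 for ATF4. Of the feedback and stress effectors, it was -2.04 for TRIB3, -1.69 for DDIT4, -1.68 for PPP1R15A, -1.49 for SESN2, -1.40 for CHAC1 and -0.62 for EIF4EBP1. Of the enzymes, it was -0.998 for ASNS, -0.87 for PCK2 and -0.31 for PHGDH. Of the transporters, it was -1.22 for SLC3A2, -0.90 for SLC7A11, -0.82 for SLC6A9, -0.66 for SLC7A1 and -0.42 for SLC7A5. For SLC7A11 the log2 fold change was 0.23 in the resistant cells, which did not pass the test, and 1.14 in CM of HCT-8/FU. Of the synthetases and the tRNA exporter, it was -1.39 for WARS1, -0.82 for XPOT, -0.79 for CARS1, -0.66 for SARS1, -0.66 for AARS1, -0.62 for GARS1, -0.58 for YARS1, -0.50 for MARS1 and -0.36 for NARS1. Of the kinases, it was -0.68 for EIF2AK3. The values of ATF4, PHGDH, SLC7A5 and NARS1 lost significance under at least 1 alternative, which include leaving out single libraries.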

How the results depend on the processing

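The number of DE members in HCT-8/FU against HCT-8 stayed at 27 to 36 under every alternative. In all 19 that kept the fold threshold, which include fits added after seeing the data, 24 of the 27 lower calls held. The exceptions were ATF5, CEBPG and SLC7A5. In CM of HCT-8/FU versus CM of HCT-8 the count of 2 became 1 when GC content and length were corrected for, 1 with that correction and a replicate block together, and 16 without the fold threshold. Neither of the 2 higher calls was kept in these corrected fits, and with the correction alone the 1 was GARS1, which was lower. Without the fold threshold the count of 11 in CM of HCT-8 against HCT-8 became 26, and the count of 19 in CM of HCT-8/FU against HCT-8 became 34. Leaving out each library in turn gave 27 to 29, 2 to 3, 10 to 15 and 15 to 19 in these comparisons and 26 to 31 for the difference between the first and second of them. A library left alone in its group was assumed to vary like the other groups. Over the 5 comparisons 23 of the 195 member values changed sign under at least 1 alternative, 12 of them with the correction. None of the 23 was called in the reported fit, and 3 passed the false discovery rate with the other sign under the correction but not the fold threshold, SLC7A11 in HCT-8/FU against HCT-8 and XPOT and EIF2AK3 in CM of HCT-8/FU versus CM of HCT-8. The 1 that was called with the other sign was the difference for SLC38A2, -0.12 without the 3 poorly aligned libraries, against 0.07 with them, in a fit with 1 residual degree of freedom chosen after seeing the data. The cause was not tested. Same-numbered libraries did not deviate together, with correlations of -0.138 to 0.167 between groups, so the numbers were not taken as pairs. The replicate block left 29 DE members in HCT-8/FU against HCT-8 and 29 members in the difference, where PHGDH was lost. The crossed pairing of HCT-8 and HCT-8/FU, added after seeing the data, gave 29. The scalings tried moved the median of all genes by at most 0.10 (log2). With 2 libraries per group and 3 of 8 shallow, small differences between neighbouring groups could be missed, and ALDH1L2, VLDLR and STC2 were limited by depth.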

Other observations

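Genes of the pathway outside the member list were also read in the conditioned-medium comparisons. In CM of HCT-8/FU versus CM of HCT-8, 3 of the 57 tested were higher, against 7.97% of all genes. They were SLC38A1 at 0.72, KLHL24 at 0.70 and EPRS1 at 0.60 on the log2 scale. With the correction for GC content and length they were 0.49, 0.15 and 0.32 and not DE. With the correction 4 others were lower, against 2.31% of all genes, namely FARSB, LARS1, NARS2 and RARS2, at -0.61, -0.69, -0.63 and -0.94. In CM of HCT-8 against HCT-8, GDF15 was lower at -0.90 ± 0.07, MTHFD2, a mitochondrial folate enzyme, at -0.66 ± 0.06 and KLHL24 at -0.60 ± 0.14, and the mitochondrial cysteine synthetase CARS2 was higher at 0.62 ± 0.09. With the correction MTHFD2 and KLHL24 were not DE, at -0.51 and -0.35, while PYCR1 and SLC43A1 were, at -0.58 and -0.59. In CM of HCT-8/FU against HCT-8, 5 genes were lower and 0 higher, where 3.28% and 7.16% of all genes were. The 5 were GDF15 at -1.02, MTHFD2 at -0.81, SHMT2 at -0.68, SLC43A1 at -0.66 and FGF21, a stress hormone below 2.3 CPM in every library, at -1.96. With the correction 10 were lower, against 4.85% of all genes.

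GDF15 followed the order of the members, with 1102 and 1207 CPM in HCT-8, 615 and 621 CPM in CM of HCT-8, 564 and 573 CPM in CM of HCT-8/FU and 333 and 301 CPM in HCT-8/FU.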
